A study of Saccharomyces cerevisiae with 222 samples.

Results

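The 12 libraries described here are the GFP-IME1 time course of the alternative activation domain experiment, in which GFP-tagged Ime1 was tethered to its DNA-binding partner Ume6 by a nanobody. They were chosen by strain label as 1 of the 4 strains of that experiment (48 libraries) in a series of 222 libraries, and hold 3 replicates each at 0, 2, 4 and 6 h after transfer of budding yeast to sporulation medium. Each adjacent pair of times was compared over all genes: 2 h against 0 h, 4 h against 2 h, and 6 h against 4 h. All strains of this experiment are SK1 diploids, a background that sporulates fast and synchronously. All carry UME6(T99N)-3V5-aGFP, an Ume6 with the T99N change that keeps Ime1 from binding and with an anti-GFP nanobody at its end, and all are ime1Δ with a transgene at HIS3 under the IME1 promoter. In GFP-IME1 the transgene encodes sfGFP-Ime1, which the nanobody holds on Ume6. In GFP-B112 it encodes B112, a bacterial sequence that acts as an activation domain in yeast, fused to GFP and so tethered in the same way. In IME1 it encodes Ime1 with no tag, which is not tethered. The remaining strain, with untagged B112, entered the fit of the spread but is not described. A strain of another experiment, with sfGFP-IME1 at the IME1 locus itself and the same UME6(T99N)-3V5-aGFP (12 libraries, the second tethered strain below), was fitted apart and is set beside GFP-IME1 with no test, since the files were normalized separately. Poly(A) RNA was sequenced from whole cultures, so fewer cells expressing a gene and less RNA per cell cannot be told apart. The study calls such replicates biological, and the labels say no more of how they were made.

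Meiosis in yeast is set in motion by starvation, through Ime1, an activator with no DNA-binding domain of its own. Ume6 sits on the URS1 sequence in front of early meiotic genes, represses them with its corepressors in dividing cells, and turns into part of an activator when Ime1 binds it. The early genes replicate DNA, break and recombine chromosomes and pair them. Ime2, an early product, helps to induce NDT80, whose protein binds the middle sporulation element and switches on the genes of the meiotic divisions and of spore formation, after which mid-late genes build the outer spore wall.

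Of 5818 gene rows, 5528 had enough reads to be tested. The 12 GFP-IME1 libraries held 9535586 to 15667959 estimated counts. Levels are given below as TPM, a share of all transcripts that is corrected for gene length. Changes are log2 fold changes on edgeR's TMM scale, which centres each library on the bulk of genes with moderate ratios, and a gene was called at a Benjamini-Hochberg adjusted p under 0.05. The same fit on TPM scaling is given where it alters a statement. In a list of markers of cells in the mating-competent haploid state, 17 of 19 genes were found and none was at 0 in all libraries. Their summed level was 589 to 1175 TPM in the GFP-IME1 libraries, 333 to 877 TPM in GFP-B112 and 196 to 481 TPM in IME1. Their part in the results was not tested. One library stood apart, replicate 2 of IME1 at 0 h. Differences from the IME1 strain include it, and some are also given without it.

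Short stretches upstream of genes followed most closely show matches to 2 sequence elements. Each stretch was picked for the element it shows, so the stretches cannot tell whether the elements sort these genes. The stretches are from the R64 assembly of strain S288C, not the SK1 sequence on which the deposited values were made. Each has 30 bases on the plus strand. Capitals mark the URS1 core, GGCGGC or its reverse complement, in front of the early genes IME2, SPO13 and ZIP1, and the middle sporulation element, GNCACAAA or its reverse complement, in front of NDT80, SMK1 and DTR1.
IME2, chrX:220923-220952: gcgcgagacttcGGCGGCaaaaagccacag
SPO13, chrVIII:131940-131969: tattgagaaataGCCGCCgacaaaaaggaa
ZIP1, chrIV:1032404-1032433: taaaataccctcGGCGGCtaaatttttaga
NDT80, chrVIII:356465-356494: ttgccctccatTTTGTGTCacctatttaag
SMK1, chrXVI:666190-666219: ggcgccactaaTTTGTGACacttgaacagt
DTR1, chrII:589589-589618: tggtgaaaaacGACACAAActcctttgtaa
In the 600 bases before the start codon, on either strand, the URS1 core stood in 48.8% of 41 early meiotic genes, in 14.3% of 56 middle and spore genes and in 11.3% of 5377 genes tested. The middle sporulation element stood in 4.88% of the early genes, 57.1% of the middle and spore genes and 8.28% of all. A shorter spelling, CACAAAA, gave 19.5%, 57.1% and 14.9%, and both spellings were chosen after seeing the data. A match describes the letters only.

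Early meiotic genes stood at their highest in GFP-IME1 at 0 h, already on entry into sporulation medium. IME2, the protein kinase that promotes meiotic entry and NDT80 induction, had 5077, 6182 and 4561 TPM at 0 h, 2931, 3208 and 3249 TPM at 2 h, 1934, 1921 and 1625 TPM at 4 h and 1256, 947 and 943 TPM at 6 h. SPO13, which keeps sister chromatids together in the first division, had 759, 912 and 574 TPM at 0 h, 365, 451 and 376 TPM at 2 h, 110, 84.4 and 91.4 TPM at 4 h and 89.9, 102 and 110 TPM at 6 h. ZIP1, the central element of the synaptonemal complex, had 551, 792 and 332 TPM at 0 h, 246, 329 and 308 TPM at 2 h, 100, 75.3 and 75.8 TPM at 4 h and 70.9, 69.7 and 57.4 TPM at 6 h. In TPM each of these genes was highest in the 3 libraries of 0 h, and its libraries of 4 h lay below those of 2 h. SPO13 fell by 1.25 ± 0.22 (SE) between 0 and 2 h on the log2 scale (adjusted p = 1.28e-05) and by 1.39 ± 0.22 between 2 and 4 h (adjusted p = 1.69e-06). ZIP1 fell by 1.25 ± 0.19 and by 1.14 ± 0.19 (adjusted p = 9.27e-07 and 2.28e-06). Neither passed the test at 6 h against 4 h, where their log2 changes were 0.23 and -0.20. IME2 fell by 1.10 ± 0.38 in the first step (adjusted p = 0.0158), a call that was lost in 6 of 18 alternatives, all of them TPM scales or plain library size (adjusted p up to 0.153 over all alternatives), and its later steps did not pass.

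In the fit of all 48 libraries the regulators themselves passed few tests. The IME1 row, which counts the transgene, had 1699, 2486 and 1568 TPM at 0 h, 986, 1350 and 1150 TPM at 2 h, 589, 456 and 556 TPM at 4 h and 575, 592 and 704 TPM at 6 h. In TPM the libraries of 2 h lay below those of 0 h and above those of 4 h, yet no step of IME1 passed the test (log2 changes of -1.06 ± 0.65, -0.45 ± 0.64 and 0.38 ± 0.64, SE). The first was called with the replicate block and with only the compared libraries, and the second with only the compared libraries (adjusted p = 0.0318, 0.0001 and 0.0324). Over 18 alternatives the adjusted p ran from 0.0001 to 0.493 for the first and from 0.0324 to 0.753 for the second. In GFP-B112, which has no IME1, the row held 0.392 to 13.4 TPM, a check of the strain labels. The GFP-B112 libraries also entered the spread behind the test of IME1, and their part in its SE was not tested. UME6 had 148, 166 and 149 TPM at 0 h, 96.8, 99.5 and 82.6 TPM at 2 h, 86.4, 79.1 and 64.4 TPM at 4 h and 96.6, 84.7 and 49.4 TPM at 6 h. It fell in the first step by 1.08 ± 0.28 (SE; adjusted p = 0.00137) and passed no later test.

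NDT80 and its targets ran the other way and peaked at 4 h. NDT80 had 74.5, 68.2 and 66.9 TPM at 0 h, 158, 163 and 182 TPM at 2 h, 969, 1013 and 888 TPM at 4 h and 525, 418 and 332 TPM at 6 h. SMK1, a MAP kinase needed for spore wall assembly, had 27.1, 21.6 and 36 TPM at 0 h, 137, 130 and 136 TPM at 2 h, 885, 875 and 770 TPM at 4 h and 497, 391 and 354 TPM at 6 h. DTR1, which exports the dityrosine precursor of the outer spore wall, had 18.3, 16.5 and 23 TPM at 0 h, 140, 120 and 133 TPM at 2 h, 1914, 2156 and 1562 TPM at 4 h and 974, 684 and 615 TPM at 6 h. In TPM no 2 neighbouring times overlapped for any of the 3 genes. From 2 to 4 h NDT80 rose by 3.19 ± 0.43, SMK1 by 3.33 ± 0.38 and DTR1 by 4.52 ± 0.50 (log2, SE; adjusted p = 7.14e-08, 1.72e-09 and 8.35e-10). SMK1 and DTR1 had already risen by 1.88 ± 0.36 and 2.39 ± 0.46 from 0 to 2 h (adjusted p = 4.46e-05 and 3.73e-05). For NDT80 that first change was 0.91 ± 0.40 (adjusted p = 0.0532), and it passed in 10 of 18 alternatives, among them TPM scaling with 1.26 (adjusted p from 0.000206 to 0.129 over the alternatives). From 4 to 6 h NDT80 fell by 1.03 ± 0.40, SMK1 by 0.88 ± 0.35 and DTR1 by 1.17 ± 0.44 (adjusted p = 0.0468, 0.0498 and 0.0379). These last calls are near the threshold and were lost in 7, 6 and 5 of 18 alternatives, library size only and single libraries left out among them (adjusted p from 0.000195 to 0.125, 0.00225 to 0.139 and 0.00061 to 0.128).

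**Figure D1:**
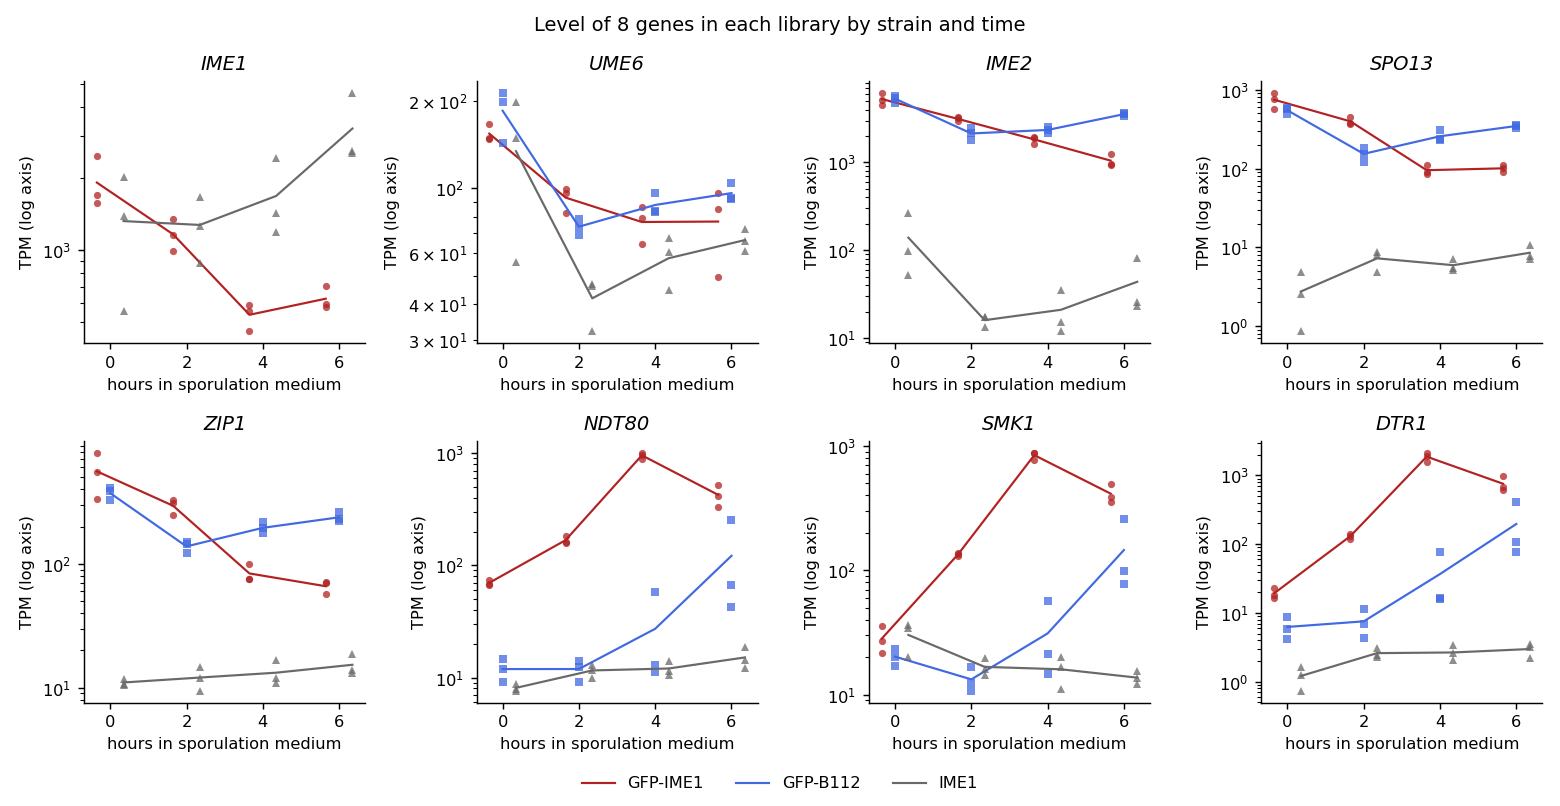
TPM (log axis) of the 8 genes followed in every step against hours in sporulation medium, with a point for each library and a line through the means of each strain (GFP-B112, which lacks IME1, is not drawn for that gene). In GFP-IME1, IME2, SPO13 and ZIP1 were highest at 0 h, and NDT80, SMK1 and DTR1 at 4 h.

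Between 0 and 2 h, 1545 genes rose (27.9% of those tested) and 1456 fell (26.3%). The study's own fold limit, a log2 change over 1.5, was passed by 430 that rose (7.78%) and 200 that fell (3.62%). The genes of protein synthesis led by number. Of 103 cytosolic ribosomal protein genes 100 rose and 1 fell, with a median log2 change of 2.67, against -0.01 over all genes. RPL6B, a protein of the large subunit, had 210, 115 and 131 TPM at 2 h, against 9.91, 4.86 and 9.22 TPM at 0 h. Reads of such duplicated genes can be shared between near-identical copies, so single members are uncertain. Of 43 ribosome biogenesis genes 24 rose and 3 fell (median 0.84).

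The largest rise by the naming rule was that of OAC1. The gene, which encodes the mitochondrial oxaloacetate carrier, had 142, 165 and 125 TPM at 2 h, against 2.73, 3.12 and 3.02 TPM at 0 h, and rose by 5.25 ± 0.33 (log2, SE; adjusted p = 4.69e-15). GDH1, the glutamate dehydrogenase that assimilates ammonium, rose by 5.09 ± 0.41, LEU1, an enzyme of leucine synthesis, by 5.09 ± 0.52, DLD3, a cytosolic lactate dehydrogenase, by 4.71 ± 0.38 and IDH2, a subunit of isocitrate dehydrogenase, by 4.64 ± 0.27 (adjusted p from 1.35e-15 to 5.55e-10). IDH2 had 2703, 2529 and 2593 TPM at 2 h, against 95.8, 66.7 and 82.2 TPM at 0 h. These 5 genes also rose in IME1, by 5.29 (OAC1), 5.32 (GDH1), 2.76 (LEU1), 3.91 (DLD3) and 4.79 (IDH2). In GFP-B112 they rose by 6.09, 4.74, 4.75, 3.87 and 4.56. The citrate synthase CIT2 and the malate synthase MLS1 of the glyoxylate route rose (log2 3.85 and 2.62), while FBP1, the gluconeogenic fructose bisphosphatase, fell (-2.75). In all, 8 of the 16 genes of gluconeogenesis, glyoxylate and acetate use rose and 5 fell. The deepest falls were those of SPG1, a gene of stationary phase growth, with 31.8, 95 and 40.7 TPM at 2 h, against 1930, 4816 and 2182 TPM at 0 h (log2 -6.06 ± 0.99), of OYE3, an NADPH oxidoreductase (-5.10 ± 0.41), of PHO89, a phosphate transporter (-4.77 ± 0.59), of ARO10, a decarboxylase of amino acid breakdown (-4.59 ± 0.45), and of the uncharacterized YLR460C (-4.57 ± 0.39). No TPM value at 2 h overlapped the values at 0 h for any of these genes. The 5 largest rises and 5 deepest falls were picked for no overlap on the TMM scale, so for them this adds no support. The falls were also seen in IME1 (SPG1 -7.40, OYE3 -2.51, PHO89 -3.21, ARO10 -5.81 and YLR460C -2.72). In GFP-B112 they were -7.46, -4.57, -3.12, -5.45 and -3.76. Of these rises and falls, LEU1, OYE3 and YLR460C differed from IME1 by the test of the difference (adjusted p = 0.00295, 0.000141 and 0.0041). None differed from GFP-B112.

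Of 4 early meiotic lists, 3 held mostly genes that fell. Of 10 genes for meiotic double-strand breaks 7 fell and 1 rose (median -0.74), of 9 strand exchange genes 8 fell (median -0.81), and of 16 genes for synapsis, crossovers and the chromosome axis 14 fell (median -0.89). By TPM scaling 4 of the 10, 3 of the 9 and 8 of the 16 fell, 2 of the 10 rose, and the medians were -0.39, -0.46 and -0.55. On that scale 12.6% of all genes fell and 39.5% rose. Of 6 genes for meiotic cohesion and monopolin 3 rose and 2 fell (median 0.30). DMC1, the meiotic recombinase, had 695, 1000 and 813 TPM at 2 h, against 2561, 2839 and 2074 TPM at 0 h. SPO11, which makes the breaks, had 127, 155 and 142 TPM at 2 h, against 223, 274 and 163 TPM at 0 h. REC8, the meiotic cohesin, fell by 1.25 ± 0.24, whereas MAM1, a monopolin subunit, rose by 1.11 ± 0.35 (log2, SE; adjusted p = 4.15e-05 and 0.00753). The study named 144 Ume6 targets from Ume6 depletion in dividing cells and from Ume6 binding, and these matched 146 rows here. Of the 146 rows 81 fell and 12 rose (median -0.80), and by TPM scaling 56 fell and 17 rose (median -0.47). In IME1 72 of these rows fell and 23 rose (median -0.58), where 40.2% of all genes fell and 30.9% rose. In GFP-B112 102 fell and 7 rose (median -1.11), where 34.7% of all genes fell and 29.6% rose. The difference of changes from IME1 passed the test as positive in 33 and as negative in 31. PEX9, a peroxisomal import receptor, fell furthest of the targets by the naming rule (log2 -4.09 ± 0.39). Its change was -4.29 in IME1 and -4.40 in GFP-B112. Histone genes fell in 6 of 9 cases, proteasome genes in 18 of 33 and autophagy genes in 12 of 16, with none rising, against 4, 8 and 6 falls by TPM scaling.

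Genes of the divisions and of spores were already rising at 2 h. Of 15 middle regulators and division genes 11 rose and none fell (median 1.42), of 18 prospore membrane and septin genes 9 rose (median 1.02), and of 23 spore wall genes 14 rose and 3 fell (median 1.60). CDC5, the polo kinase of the meiotic divisions, had 178, 176 and 218 TPM at 2 h, against 21.5, 25.1 and 18 TPM at 0 h. SPR3, a sporulation-specific septin, rose by 3.14 ± 0.64, and SPO19, a prospore membrane and spore wall protein, by 3.24 ± 0.70 (log2, SE; adjusted p = 8.94e-05 and 0.000197).

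Between 2 and 4 h, 1457 genes rose (26.4%) and 1948 fell (35.2%), with 672 (12.2%) and 97 (1.75%) past a log2 change of 1.5. All 15 middle regulators and division genes rose (median 3.83, against -0.19 over all genes), as did 17 of 18 prospore membrane and septin genes (median 2.87) and 19 of 23 spore wall genes (median 3.80). SPS1, a kinase of the spore formation pathway, had 3064, 2945 and 3173 TPM at 4 h, against 76.2, 88.5 and 89.3 TPM at 2 h. SMA2, a prospore membrane protein, had 595, 672 and 605 TPM at 4 h, against 28.7, 25.8 and 33.1 TPM at 2 h. GAS2, a glucan-remodelling enzyme of the spore wall, rose by 5.31 ± 0.62, and the meiosis-specific glucanase SPR1 by 5.51 ± 0.53 (log2, SE; adjusted p = 3.33e-09 and 3.68e-11). The summed TPM of the middle list averaged 0.08, 0.34, 3.44 and 4.53% of all TPM at 0, 2, 4 and 6 h, and that of the spore wall list 0.204, 0.761, 5.70 and 3.20%.

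The largest rise of this step by the naming rule was that of GAT4, a GATA-family zinc finger gene, with 2589, 2693 and 2734 TPM at 4 h, against 6.15, 19.7 and 8.45 TPM at 2 h (log2 8.52 ± 0.90, SE; adjusted p = 2.62e-09). SRD1, another GATA-type gene, had 939, 1241 and 1052 TPM at 4 h, against 7.53, 15.5 and 17.4 TPM at 2 h. HXT10, a hexose transporter (6.89 ± 0.74), CTS2, a sporulation chitinase (6.32 ± 0.62), and PIR5, a cell wall protein (6.23 ± 0.66), came next. PIR5 had 7609, 7488 and 7979 TPM at 4 h, against 149, 175 and 165 TPM at 2 h. Of the mitotic G1 and budding list 8 of 18 rose and 3 fell, among them the septins CDC3 (3.83 ± 0.39) and CDC10 (3.17 ± 0.30), which also serve the prospore membrane. Its median was 0.62 by TMM and -0.05 by TPM scaling. Of 16 autophagy genes 7 rose and 3 fell by TMM, and 5 rose and 8 fell by TPM scaling. By TPM scaling 15.1% of all genes rose and 61.8% fell. ATG8, the ubiquitin-like protein of autophagosomes, and ATG3, which conjugates it, rose (1.91 ± 0.18 and 2.68 ± 0.21), as did SGA1, the sporulation glucoamylase that breaks down glycogen (5.40 ± 0.58).

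All 10 double-strand break genes fell in the same step (median -0.92), 6 of 9 strand exchange genes fell and 1 rose (median -0.92), and 12 of 16 synapsis genes fell and 1 rose (median -1.09). Of 6 cohesion and monopolin genes 3 fell and 2 rose (median -0.65). SPO11 had 32.8, 24.4 and 26.1 TPM at 4 h, against 127, 155 and 142 TPM at 2 h (log2 -1.68 ± 0.24, SE; adjusted p = 2.93e-07). Of 34 genes of the respiratory chain and ATP synthase 26 fell (median -0.84), as did 13 of 16 gluconeogenesis, glyoxylate and acetate genes (median -1.67) and 26 of 33 proteasome genes (median -0.74). Of 38 DNA replication genes 19 fell and 2 rose (median -0.41), with 29 falls by TPM scaling, where 61.8% of all genes fell. SDH4, a subunit of succinate dehydrogenase, had 1139, 1413 and 1083 TPM at 4 h, against 6452, 6621 and 5064 TPM at 2 h. The 5 deepest falls by the naming rule held 3 enzymes of the methylcitrate cycle, which oxidizes propionate: PDH1 (-2.51 ± 0.50), ICL2 (-2.50 ± 0.37) and CIT3 (-2.29 ± 0.61). The others were RGI2, a gene of respiratory growth (-2.67 ± 0.42), and BIO2, biotin synthase (-2.30 ± 0.34).

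Of the 146 rows of Ume6 targets 64 fell and 27 rose in this step (median -0.47), set against 35.2% of all genes that fell and 26.4% that rose. By TPM scaling 99 fell and 16 rose (median -1.14), where 61.8% of all genes fell and 15.1% rose. Those named for the largest rises were DON1, a protein of the prospore membrane's leading edge, with 2776, 3566 and 2921 TPM at 4 h, against 421, 575 and 537 TPM at 2 h (log2 3.28 ± 0.32, SE), AMA1, the meiosis-specific activator of the anaphase-promoting complex (2.83 ± 0.31), and HUL4, a ubiquitin ligase (3.47 ± 0.26). In this list 56.9% of 144 genes held the URS1 core upstream and 6.94% the middle sporulation element. Their summed share of TPM averaged 14.9, 9.42, 4.80 and 4.00% at 0, 2, 4 and 6 h. Of the 130 that changed over the course, 90 were highest at 0 h by TMM and 82 by TPM.

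Between 4 and 6 h fewer genes changed. In this step 905 rose (16.4%) and 814 fell (14.7%), and 126 (2.28%) rose and 3 (0.0543%) fell past a log2 change of 1.5. Without replicate 3 of GFP-IME1 at 6 h, which also changed the library TMM refers to, 522 rose. That change alone, a setting chosen after seeing the data, gave 700 rises. Without replicate 2 at 4 h 492 fell, and without replicate 2 at 6 h 534 fell. Rises were 52.6% of these calls by TMM, 35.7% with RLE size factors and 69.7% with library size only, so the balance of this step depends on the scale. The largest rises by the naming rule were as follows. DDR2, a small stress-response protein, had 19575, 23653 and 39064 TPM at 6 h, against 507, 426 and 626 TPM at 4 h (log2 5.88 ± 0.46, SE; adjusted p = 4.08e-12). CWP2, a cell wall mannoprotein, had 3670, 4591 and 8228 TPM at 6 h, against 102, 101 and 131 TPM at 4 h (5.78 ± 0.45). DIT1, the first enzyme of dityrosine synthesis, had 1321, 1587 and 1767 TPM at 6 h, against 33.3, 36.8 and 43.7 TPM at 4 h (5.50 ± 0.40). The uncharacterized YDL218W (5.56 ± 0.36) and PMA2, a plasma membrane proton pump (3.81 ± 0.59), completed the list, with no overlap in TPM for any of the 5 genes. The rule picks only genes without overlap on the TMM scale, so this adds no support.

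Most of the middle regulators and division genes fell in this step, 9 of 15 with none rising (median -0.93). Their summed share of TPM was nevertheless 4.53% at 6 h, against 3.44% at 4 h, of which SPS4, a sporulation gene, held 3.56% at 6 h and 1.97% at 4 h on average. Of the 18 prospore membrane and septin genes 11 fell and none rose (median -0.93). The B-type cyclin CLB1 had 264, 199 and 179 TPM at 6 h, against 551, 647 and 527 TPM at 4 h (log2 -1.29 ± 0.44, SE; adjusted p = 0.0241). Of 23 spore wall genes 5 fell and 3 rose, with a median of -0.78. The 3 that rose were DIT1, DIT2, the next enzyme of the dityrosine pathway (3.08 ± 0.34), and SHC1, an activator of chitin synthesis (2.14 ± 0.17). The 3 genes that fell past 1.5 were NTE1, a phospholipase of the endoplasmic reticulum (-1.55 ± 0.26), YCR043C (-1.53 ± 0.34) and YER135C (-1.61). Without replicate 2 at 4 h that count was 0, without replicate 1 or replicate 3 at 4 h it was 5, and without replicate 1 at 6 h it was 13. Next came MRK1, a glycogen synthase kinase 3 homologue (-1.42 ± 0.27), PDH1 (-1.39 ± 0.49) and SPO23, a meiosis gene (-1.36 ± 0.41).

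Ribosome biogenesis genes rose again at the end of the course, 24 of 43 with 1 fall (median 0.83, against 0.01 over all genes). NSR1, a nucleolar protein of pre-rRNA processing, had 77.7, 106 and 106 TPM at 6 h, against 15.6, 11.8 and 18.4 TPM at 4 h, and NOP58, a snoRNP protein, 53.5, 66.8 and 73.4 TPM, against 13.7, 11.9 and 15.8 TPM. Of the 103 ribosomal protein genes 13 rose, a smaller share than the 16.4% of all genes, and 1 fell (median 0.46). Of 13 glycogen and trehalose genes 5 rose, with GPH1, glycogen phosphorylase, and GSY2, glycogen synthase, among them (1.56 ± 0.41 and 1.28 ± 0.36). ATG8 rose once more (1.28 ± 0.18). The early lists had few calls, none among 10 double-strand break genes, 1 rise among 9 strand exchange genes, 2 falls among 16 synapsis genes and 2 falls among 6 cohesion and monopolin genes, LRS4 and SGO1. SGO1, a protector of cohesion, had 153, 114 and 114 TPM at 6 h, against 297, 291 and 256 TPM at 4 h, and LRS4 fell by 0.41 ± 0.16 (log2, SE). Their medians were -0.07, 0.09, -0.22 and -0.35, and that of strand exchange was -0.06 by TPM scaling.

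The first and last steps share no libraries. Of the 1545 genes that rose in the first, 240 (15.5%) also rose in the last, where 16.4% of all genes rose. They are 26.5% of the 905 of the last, against 27.9% of all genes that rose in the first. The overlap of rises is thus near the share over all genes. Of the 1545, 255 fell in the last (16.5%, against 14.7% of all genes), which is 31.3% of the 814 that fell. Over the whole course 4901 genes (88.7%) changed between some times, and on the TMM scale 1683 of these were highest at 0 h. The level was highest at 2 h for 1059 of them, at 4 h for 1225 and at 6 h for 934.

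**Figure D2:**
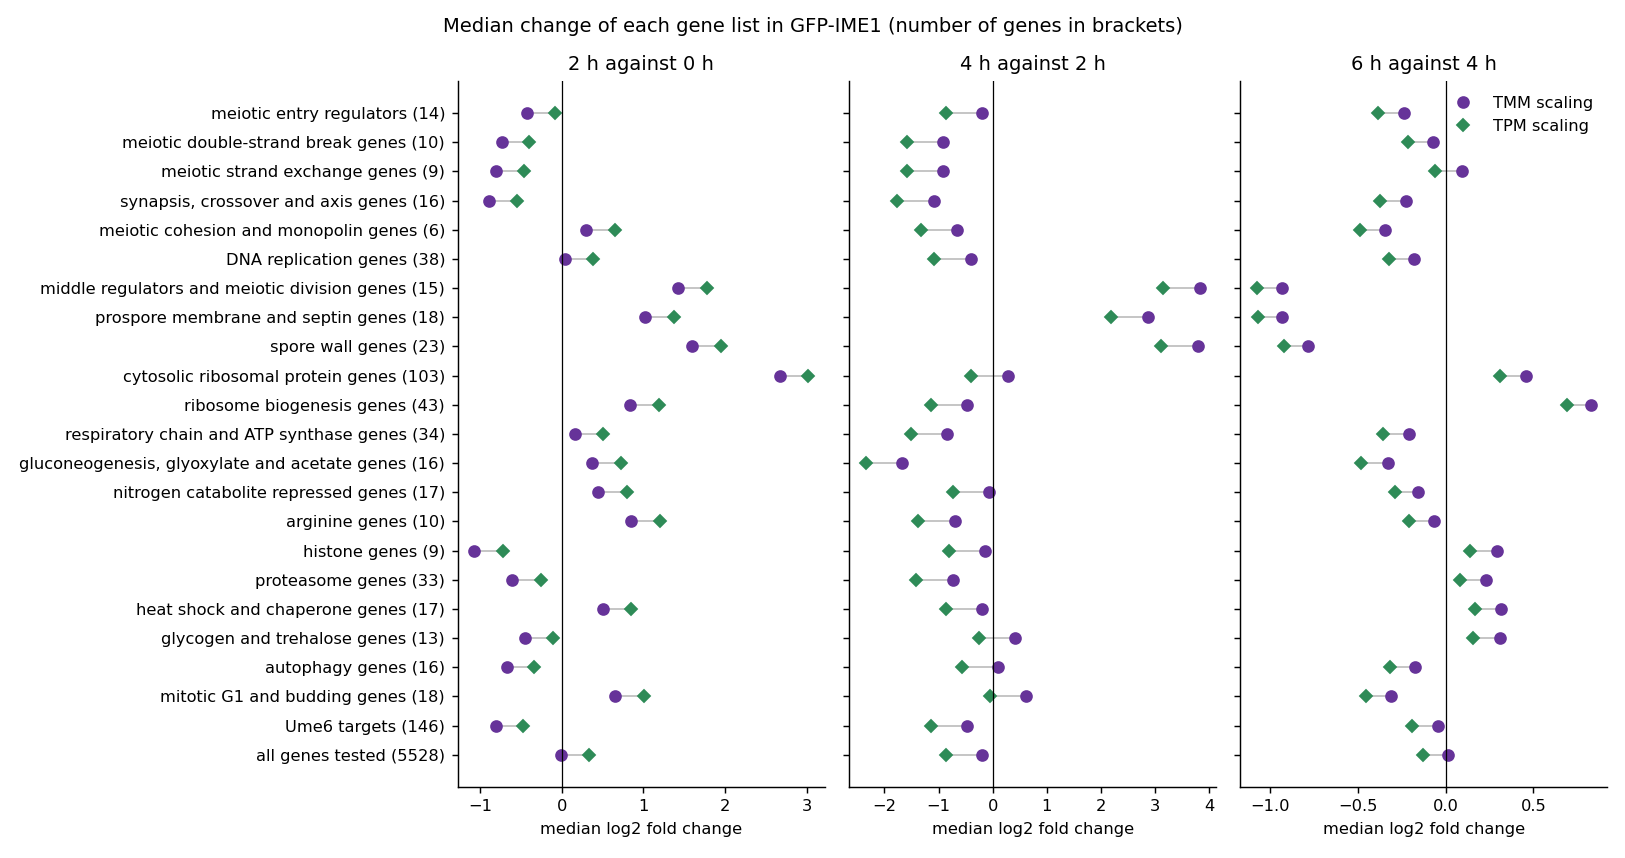
Median log2 fold change of each gene list in the 3 steps of GFP-IME1, by TMM and by TPM scaling, with the median of all tested genes for reference. The middle and spore lists had the highest medians at 4 h against 2 h (2.87 to 3.83 by TMM), the ribosomal protein genes the highest at 2 h against 0 h (2.67).

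The choice between TMM and TPM scaling altered the direction of many genes. By TPM scaling 2181 genes rose (39.5%) and 696 fell (12.6%) from 0 to 2 h, 836 rose (15.1%) and 3417 fell (61.8%) from 2 to 4 h, and 557 rose (10.1%) and 1073 fell (19.4%) from 4 to 6 h. Rises thus made up 75.8, 19.7 and 34.2% of the calls of the 3 steps by TPM scaling, against 51.5, 42.8 and 52.6% by TMM. The median of all genes was 0.34, -0.87 and -0.13 by TPM scaling and -0.01, -0.19 and 0.01 by TMM. The shift was nearly constant for most genes of a step, with medians of 0.35, -0.67 and -0.14, so most ranks within a step barely depend on it. Over all genes it ran from 0.0 to 0.405, from -0.705 to -0.259 and from -0.539 to -0.102. The sign of the change differed between scalings in 938, 1064 and 606 genes, 17.0, 19.2 and 11.0% of those tested. All 1545 rises of the first step and all 1948 falls of the second by TMM were kept by TPM scaling, whereas 696 of 1456 falls of the first step, 836 of 1457 rises of the second and 557 of 905 rises of the last were kept. The limit of 1.5 was passed by 675 rises and 104 falls in the first step by TPM scaling, by 384 and 984 in the second and by 102 and 8 in the last.

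**Figure D3:**
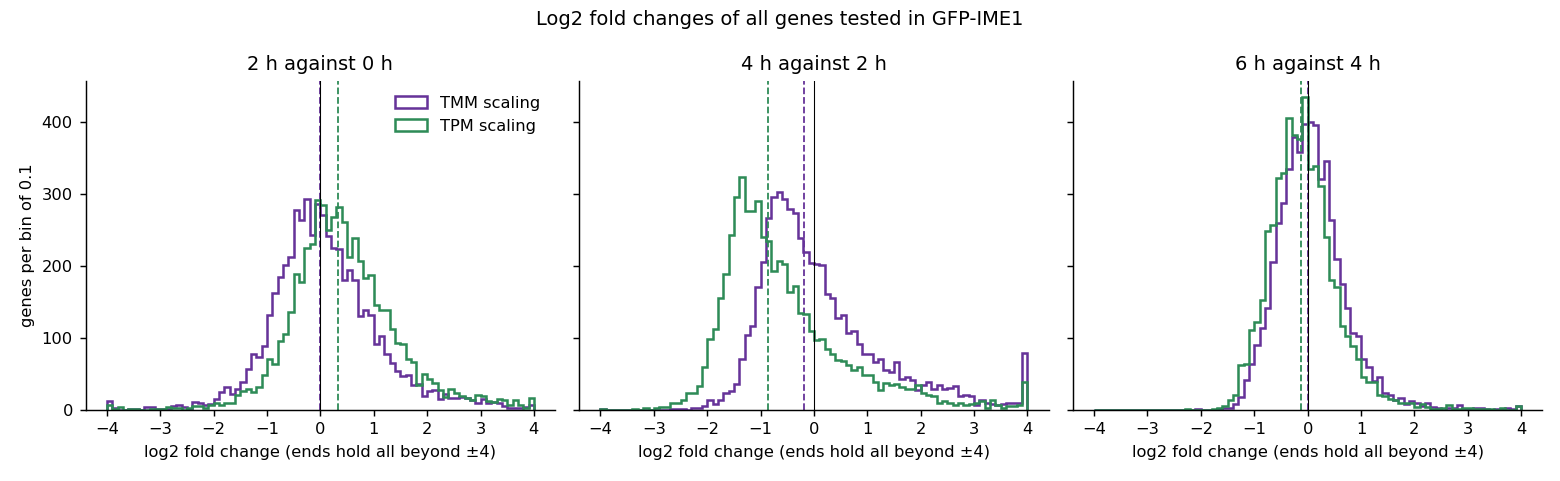
Distribution over 5528 genes of the log2 fold change in each step of GFP-IME1, by TMM and by TPM scaling. The TPM curves are moved as a whole, to medians of 0.34, -0.87 and -0.13, against -0.01, -0.19 and 0.01 by TMM.

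One unnamed row, SK1_04T03460.1, took a growing share of the transcripts. It held 1.50, 1.11 and 1.72% of TPM at 0 h, 3.25, 2.58 and 3.04% at 2 h, 15.7, 17.0 and 15.9% at 4 h and 23.6, 21.0 and 21.6% at 6 h. TPM corrects for gene length, and its part of the estimated counts was lower, at 4.80 to 5.41% at 4 h and 7.69 to 8.87% at 6 h. With this row left out of the TPM scale, a setting chosen after seeing the data, the median of all genes at 4 h against 2 h was -0.65, in place of -0.87. TMM factors, which multiply library size, were 1.18 to 1.28 at 2 h and 0.82 to 0.87 at 4 h. TPM and TMM both measure shares of the RNA in a library, and neither gives RNA per cell.

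Single genes show what the scale decides. IME2 had 1934, 1921 and 1625 TPM at 4 h, against 2931, 3208 and 3249 TPM at 2 h, with no overlap. On the TMM scale it had 4591, 5045 and 4142 CPM (counts scaled to library size) at 4 h, against 4703, 5053 and 5017 at 2 h, and the groups overlap. Its log2 change was -0.10 by TMM and -0.78 by TPM scaling (adjusted p = 0.831 and 0.0971), so it was called by neither. UME6 had 271, 275 and 217 CPM on the TMM scale at 4 h, against 205, 207 and 169 at 2 h, with no overlap, whereas its TPM at these times overlapped. Its log2 change was 0.39 by TMM and -0.28 by TPM scaling, and it was called by neither. Calls in opposite directions were made for 8 genes, all at 4 h against 2 h, which rose by 0.32 to 0.39 by TMM and fell by TPM scaling. ERP1, YER079W, RIM8, CLD1, ARP6, GCR2 and UBP16 were among them, named here after their values were seen. SIN3, the corepressor scaffold that Ume6 recruits, rose in that step by TMM (0.78, adjusted p = 0.00544) but had a change of 0.11 by TPM scaling (adjusted p = 0.657).

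The lists with a clear direction kept it under both scales, while those near the middle did not. At 4 h against 2 h the middle list had a median of 3.15 by TPM scaling and the double-strand break list -1.59. The ribosomal protein genes had 0.28 by TMM, with 4 rises and 2 falls, and -0.40 by TPM scaling, with 1 rise and 9 falls, although their median lay 0.47 above that of all genes under either scale. Glycogen and trehalose genes had 0.42 by TMM and -0.25 by TPM scaling, and autophagy genes 0.11 and -0.57. The time of the highest level depended on the scale for ribosomal protein genes above all lists tabulated: 90 of 103 peaked at 6 h by TMM, against 41 by TPM, where 59 peaked at 2 h. By contrast 17 of 18 prospore membrane genes and 16 of 23 spore wall genes peaked at 4 h under both. Over all 4901 changing genes, 3697 (75.4%) had the same peak time.

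**Figure D4:**
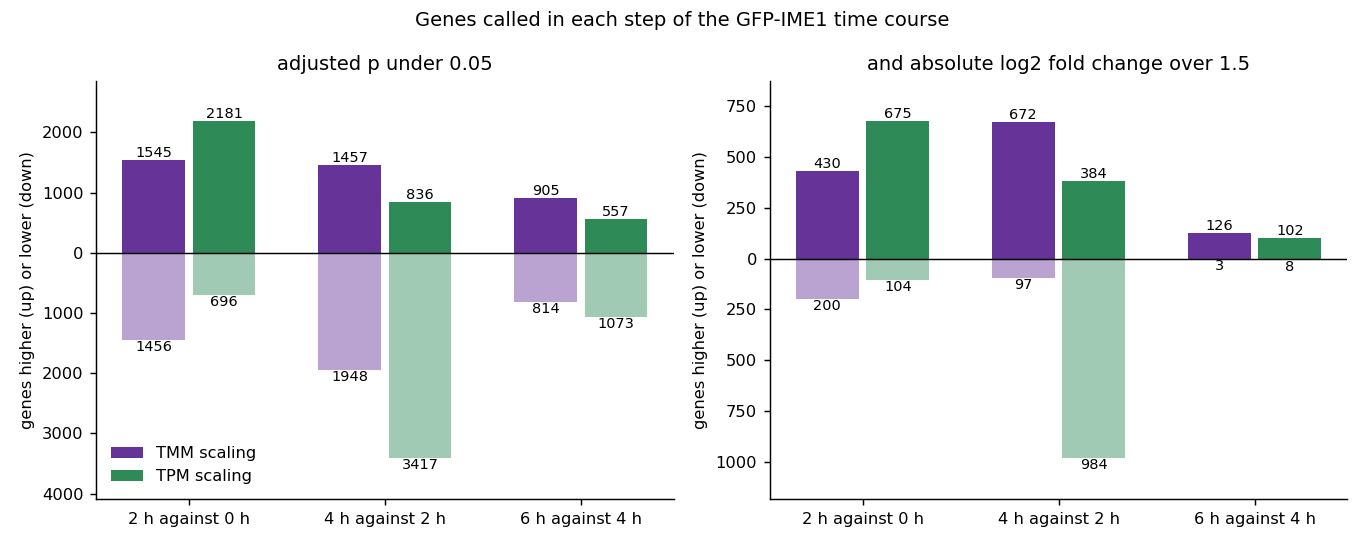
Number of genes called higher (upward bars) and lower (downward bars) in each step of GFP-IME1 by TMM and by TPM scaling. One panel uses an adjusted p under 0.05, and the other adds an absolute log2 fold change over 1.5. By adjusted p alone TMM gave 1457 rises and 1948 falls at 4 h against 2 h, and TPM scaling 836 and 3417.

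Set against the other tethered activator, fewer genes passed the test of a difference in the first step than in the later ones. Below, a difference of changes is called larger where it was positive and smaller where it was negative. The difference of changes, GFP-IME1 minus GFP-B112, passed the test as larger in 188 genes (3.4%) and smaller in 258 (4.67%) at 2 h against 0 h, in 1156 (20.9%) and 1274 (23.0%) at 4 h against 2 h and in 848 (15.3%) and 858 (15.5%) at 6 h against 4 h. The first of these counts, 446 in all, is unstable: it was 767 without replicate 1 of GFP-B112 at 0 h, 224 and 188 without replicates 2 and 3 of GFP-B112 at 0 h, 199 without replicate 1 of GFP-B112 at 2 h, and 227 and 284 without replicates 1 and 3 of GFP-IME1 at 0 h. In its own steps GFP-B112 had 1637 rises (29.6%) and 1920 falls (34.7%), then 705 (12.8%) and 873 (15.8%), then 421 (7.62%) and 248 (4.49%). IME2 started at overlapping levels, with 5077, 6182 and 4561 TPM at 0 h in GFP-IME1, against 5739, 4772 and 5448 TPM in GFP-B112. At 6 h it had 1256, 947 and 943 TPM in GFP-IME1, against 3344, 3697 and 3583 TPM in GFP-B112, and the strains did not overlap.

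NDT80 and its targets differed in timing. NDT80 had 969, 1013 and 888 TPM at 4 h in GFP-IME1, against 57.6, 11.1 and 12.9 TPM in GFP-B112. At 6 h it had 525, 418 and 332 TPM in GFP-IME1, against 255, 42.9 and 66.9 TPM in GFP-B112. The strains did not overlap at either time, and replicate 1 of GFP-B112 was high at both. The difference of changes for NDT80 was 2.04 at 4 h against 2 h (adjusted p = 0.00418) and -3.29 at 6 h against 4 h (adjusted p = 5.25e-05). Without replicate 1 of GFP-B112 at 4 h these were 3.15 and -4.40, and without its replicate 1 at 6 h the last was -2.13. At 6 h against 4 h the middle list fell in 9 of 15 genes in GFP-IME1 but rose in 14 of 15 in GFP-B112 (medians -0.93 and 2.14), and the difference was smaller in 13 of 15. The prospore membrane list gave a smaller difference in 17 of 18 genes, and the spore wall list in 17 of 23 with a larger one in 3. Of 103 ribosomal protein genes 13 rose in GFP-IME1, a smaller share than the 16.4% of all genes, and 89 fell in GFP-B112, with a larger difference in 95.

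Synapsis genes fell in both tethered strains in the first step, in 14 of 16 cases in GFP-IME1 and 16 of 16 in GFP-B112 (medians -0.89 and -1.47), whereas the cohesion and monopolin list had 3 rises and 2 falls in GFP-IME1 and 2 falls in GFP-B112 (medians 0.30 and -0.16). SPO13 had 365, 451 and 376 TPM at 2 h in GFP-IME1, and 185, 121 and 155 TPM in GFP-B112, from like levels at 0 h (759, 912 and 574 TPM, and 585, 495 and 565 TPM). The difference of changes, 0.95, passed narrowly (adjusted p = 0.0497) and was lost in 29 of 36 alternatives (differences of 0.82 to 1.08, adjusted p up to 0.297). From 2 to 4 h, by contrast, SPO13 had 110, 84.4 and 91.4 TPM in GFP-IME1 at 4 h but 306, 236 and 229 TPM in GFP-B112, and the difference was -2.12 (adjusted p = 9.75e-07). The difference was negative in all 10 double-strand break genes and in 13 of 16 synapsis genes in that step. These lists fell in GFP-IME1 (medians -0.92 and -1.09) and had medians of 0.39 and 0.51 in GFP-B112.

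Against the strain with untethered IME1, which expressed the early genes weakly, the steps also differed. The difference was larger in 1331 genes (24.1%) and smaller in 953 (17.2%) at 2 h against 0 h, in 1226 (22.2%) and 1531 (27.7%) at 4 h against 2 h, and in 496 (8.97%) and 370 (6.69%) at 6 h against 4 h. Without replicate 2 of IME1 at 0 h the 3 totals were 2716, 3103 and 1259, in place of 2284, 2757 and 866. Without replicate 2 of GFP-IME1 at 4 h the last was 515. The IME1 strain itself had 1706 rises (30.9%) and 2220 falls (40.2%) in its first step, 554 (10.0%) and 530 (9.59%) in its second, and 2 (0.0362%) and 3 (0.0543%) in its last. The 5 of the last, named after their values were seen, were TOD6 and RMT2, which rose, and SK1_15T04960.1, YHB1 and RAS2, which fell. IME2 had 2931, 3208 and 3249 TPM at 2 h in GFP-IME1, against 17.5, 17.2 and 13.2 TPM in IME1. SPO13 stayed at 0.864 to 10.8 TPM, ZIP1 at 9.48 to 18.8 TPM and NDT80 at 7.64 to 18.8 TPM in all IME1 libraries. From 2 to 4 h the difference of changes was 3.00 for NDT80, 3.27 for SMK1 and 4.36 for DTR1 (adjusted p = 6.19e-05, 2.79e-06 and 2.57e-06). Growth genes moved alike in number in the first step: 100 of 103 ribosomal protein genes rose in GFP-IME1 and 99 in IME1, with a smaller rise in GFP-IME1 for 46. These counts include replicate 2 of IME1 at 0 h and are not given without it.

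**Figure D5:**
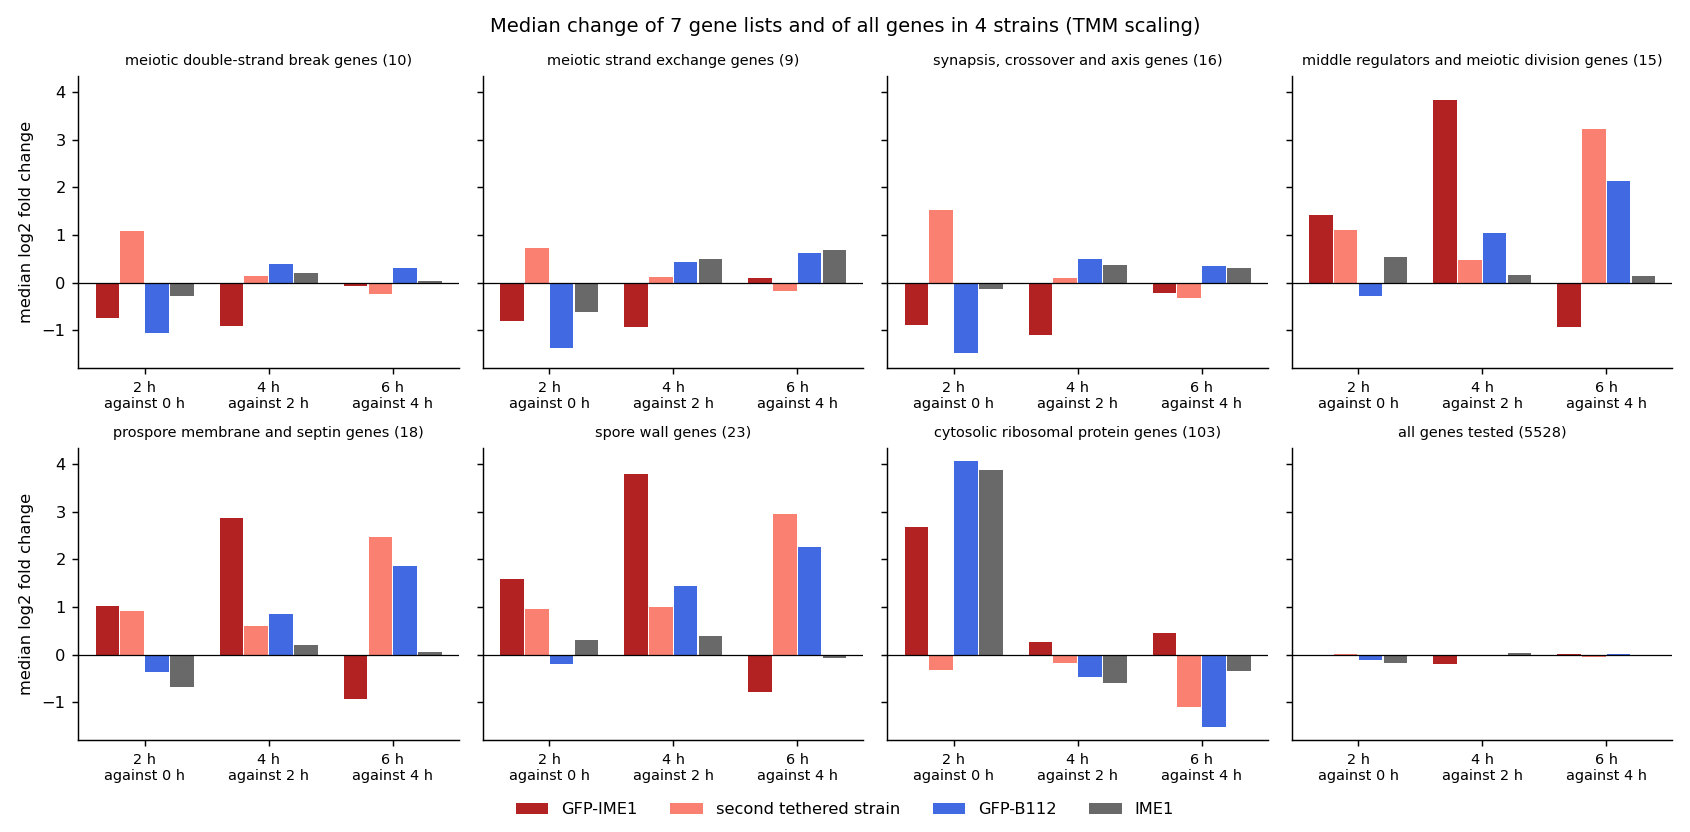
Median log2 fold change of gene lists in each step in GFP-IME1, GFP-B112, IME1 and the second tethered strain. At 6 h against 4 h the middle list had a median of -0.93 in GFP-IME1, 2.14 in GFP-B112 and 3.23 in the second tethered strain.

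The second tethered strain, with sfGFP-IME1 at the IME1 locus, had IME2 and NDT80 at their highest mean TPM at 6 h, while its IME1 row was highest at 0 h, as in GFP-IME1. It had 1789 rises (32.4%) and 1736 falls (31.4%) at 2 h against 0 h, and 792 (14.3%) and 746 (13.5%) at 6 h against 4 h. Its IME2 had 551, 1370 and 488 TPM at 0 h, 2365, 2804 and 2443 TPM at 2 h, 2620, 2462 and 2434 TPM at 4 h and 3062, 2751 and 2526 TPM at 6 h. In GFP-IME1 the libraries of 0 h were the highest for this gene, and in the second strain they were the lowest. Synapsis genes fell in 14 of 16 cases at 2 h against 0 h in GFP-IME1 but rose in 15 of 16 in the second strain (median 1.52). Of 103 ribosomal protein genes 100 rose in that step in GFP-IME1, whereas 7 rose and 39 fell in the second strain (median -0.31). Of 43 ribosome biogenesis genes 24 rose in GFP-IME1, and all 43 fell in the second strain (median -2.58). NDT80 had 22.7, 43.5 and 20.8 TPM at 4 h and 361, 467 and 158 TPM at 6 h in the second strain, and all 15 middle genes rose at 6 h against 4 h (median 3.23). The IME1 row had 1699, 2486 and 1568 TPM at 0 h in GFP-IME1, and 3605, 3407 and 2993 TPM in the second strain. At 6 h it had 575, 592 and 704 TPM in GFP-IME1, and 2252, 2163 and 2956 TPM in the second strain. The strains differ in locus, experiment and normalization, which cannot be told apart.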

How the data were processed

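The authors made single-end, directional poly(A) libraries (100 bp reads) and quantified them with kallisto on SK1 transcripts, with a fragment length of 160 and an SD of 20. The kallisto version is not given in the sources used here. They deposited estimated counts and, in a separate table, TPM, both computed per gene by the authors. Here the estimated counts were rounded to whole numbers and tested in edgeR 4.0.16 (R 4.3.3) with quasi-likelihood F-tests, TMM factors and filterByExpr, in 1 fit of the 48 libraries with a mean for each strain and time. The adjusted p is that of Benjamini and Hochberg over all 5528 genes tested, with a threshold of 0.05, and the SE is the log2 change divided by the root of F. Counting error grows as depth falls, and no interval is given for single counts.

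TPM scaling ran the same test with library sizes for which the fitted changes follow TPM. limma 3.58.1 on log2(TPM + 1) and on log2(TPM + 0.1), DESeq2 1.42.0, DESeq2's size factors in edgeR (RLE), plain library size and no filter were alternatives. So were only the libraries compared, the replicate number as a block and single libraries of the compared strains left out. A further 2 scalings and 1 left-out library were added after seeing the data. The second tethered strain was fitted with 94 of the 96 libraries of its experiment. In the other 2 the deposited counts and TPM did not match. Deviations of same-numbered samples from their group means correlated by 0.17, 0.166 and 0.378 at 4 h against 2 h. They correlated by -0.007, 0.323 and -0.384 at 2 h against 0 h and by 0.36, -0.143 and 0.466 at 6 h against 4 h. The labels do not say whether equal numbers pair samples, and these values do not settle it. The main fit therefore used no pairing, and the block was an alternative. The script that made these tests was checked on simulated data.

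Of 5818 rows, 5395 were matched to R64 names, 315 have a name that was not matched, 108 have no name, and 46 share a symbol with another row. Named genes are 8 genes in every step, the 5 with the largest and the 5 with the smallest log2 change among called genes that had no overlap in TMM values and whose log2 CPM averaged 2 or more, and up to 3 members of each list with the largest change. The gene lists are textbook groups, except the Ume6 targets, whose names the study gives. Members and lists were chosen with earlier results of these data known. Of the lists, DUR1,2, ARG5,6 and HHF2 were not found. Promoter windows and coordinates are from RefSeq's R64 assembly. Tables and plots were made with Python 3.11.15, pandas 2.3.3 and matplotlib 3.10.9.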

Additional observations from a re-analysis of the deposited data

Results flagged for a closer look

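The following steps of GFP-IME1 differed from the same steps of another strain by edgeR's test of the difference itself, given as GFP-IME1 minus the other strain on the log2 scale. Against IME1 at 2 h against 0 h, the differences were 1.06 for UME6 (adjusted p = 0.0276), 2.23 for IME2 (0.00134), -2.42 for SPO13 (3.58e-06), -1.01 for ZIP1 (0.00249) and 3.16 for SMK1 (8.27e-06). They became 1.50 for UME6, 1.65 for IME2, -2.98 for SPO13, -0.88 for ZIP1 and 3.51 for SMK1 without replicate 2 of IME1 at 0 h. At 4 h against 2 h they were -1.22 for SPO13 (0.00372), -1.40 for ZIP1 (4.04e-05), 3.00 for NDT80 (6.19e-05), 3.27 for SMK1 (2.79e-06) and 4.36 for DTR1 (2.57e-06). At 6 h against 4 h IME2 differed by -1.62 (0.0378).

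Against GFP-B112 at 2 h against 0 h, the differences were 0.95 for SPO13 (0.0497), 2.85 for SMK1 (0.000941) and 2.49 for DTR1 (0.0142). At 4 h against 2 h they were -2.12 for SPO13 (9.75e-07), -1.64 for ZIP1 (4.14e-06), 2.04 for NDT80 (0.00418), 2.13 for SMK1 (0.000845) and 2.27 for DTR1 (0.0035). At 6 h against 4 h they were -3.29 for NDT80 (5.25e-05), -3.19 for SMK1 (1.49e-05) and -3.68 for DTR1 (3.83e-05). Replicate 1 of GFP-B112 was high in these 3 genes at 4 and 6 h, and without it at 6 h the last values were -2.13, -2.46 and -2.58. Among 36 alternatives each, the call was lost in 10 for UME6 against IME1 at 2 h against 0 h, in 10 for IME2 against IME1 at 6 h against 4 h, in 29 for SPO13 and 2 for DTR1 against GFP-B112 at 2 h against 0 h, and in none for the other differences.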

How the results depend on the processing

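Small changes of a gene depend on the scale between libraries, the last step rests on 3 libraries a time with a wide spread, and no scale measures RNA per cell. From here on, counts follow the order TPM scaling, TPM scaling without the most abundant row, library size only, and limma on log2(TPM + 0.1), on log2(TPM + 1) with a mean TPM of at least 1, and on log2(TPM + 1). At 2 h against 0 h, falls (1456 by TMM) numbered 696, 668, 773, 670, 677 and 677, and falls past 1.5 (200) numbered 104, 99, 125, 99, 98 and 97. At 4 h against 2 h, rises (1457) numbered 836, 971, 888, 822, 827 and 827, falls (1948) 3417, 2989, 3033, 3387, 3407 and 3406, and falls past 1.5 (97) 984, 529, 648, 970, 851 and 850. Differences from GFP-B112 at 2 h against 0 h (446) numbered 285, 281, 156, 260, 284 and 284. Rises past 1.5 at 2 h against 0 h (430) were 675 by TPM scaling, 696 without the most abundant row and 674 by limma with 0.1. Rises past 1.5 at 4 h against 2 h (672) were 384 by TPM scaling, 435 by library size and 381, 373 and 373 by limma. Rises at 6 h against 4 h (905) were 557 by TPM scaling and 554, 540 and 540 by limma. With library size only, 355 fell at 6 h against 4 h (814 by TMM), none fell past 1.5 (0 against 3), and 466 differed from IME1 (866 by TMM). DESeq2 gave 1289 falls at 6 h against 4 h, and a fit of only the libraries compared 1253. Falls past 1.5 at 4 h against 2 h were 60 by DESeq2 and 60 by RLE. At 6 h against 4 h they were 7 by DESeq2, 6 by RLE, 5 with another TMM reference library, 8 by TPM scaling and 7 by limma with 0.1. In the second tethered strain 296 rose at 4 h against 2 h by TPM scaling (554 by TMM).

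Rises were 35.5% of the calls at 6 h against 4 h by DESeq2, 35.7% by RLE and 37.9% with another TMM reference library, a setting chosen after seeing the data, against 52.6% by TMM. Leaving out each GFP-IME1 library or replicate 1 of IME1 at 0 h, 13 fits in all, gave 1360 to 1680 rises and 1241 to 1453 falls at 2 h against 0 h. The ranges were 1352 to 1618 and 1659 to 1954 at 4 h against 2 h, and 522 to 908 and 492 to 1211 at 6 h against 4 h. Other left-out libraries could pass these ranges. Without replicate 2 of IME1 at 0 h, 1677 genes rose and 1629 fell, 1540 and 2157, and 1111 and 1043 in the 3 steps. The 1211 came without replicate 1 of IME1 at 0 h, which was not compared but whose absence changed the TMM reference library, as did that of replicate 3 of GFP-IME1 at 6 h for the 522. Past 1.5 the ranges were 402 to 456 and 185 to 209, 641 to 729 and 70 to 111, and 92 to 156 and 0 to 13. Changes at any time ranged from 4762 to 4933. With each of the 24 libraries of the compared strains left out, differences from IME1 ranged from 2008 to 2716, 2485 to 3103 and 515 to 1259. Those from GFP-B112 ranged from 188 to 767, 2120 to 2509 and 1340 to 1772 in the same way.

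With the replicate number as a block, 1642 genes rose and 1574 fell, 1526 and 2088, and 1046 and 985 in the 3 steps, and 702 differed from GFP-B112 at 2 h against 0 h. Whether same-numbered samples are paired is not given by the labels and is not settled by their correlations. At 4 h against 2 h the block changed no call of a named gene and no count by over 1.5 times. Of 4050 values of named genes under the alternatives, 3867 kept their direction and side of the threshold, 169 lost the call (94 of them under TPM scales, limma or library size), 14 gained it and 0 called values changed sign. Counts without the low-count filter stayed within 1.5 times.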
